A study of Homo sapiens with 15 samples.

Results

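The matrix metalloproteinases MMP1, MMP2, MMP3, MMP7, MMP9, MMP13 and MMP14 and the tissue inhibitors TIMP1, TIMP2 and TIMP3 were followed in MDA-MB-231 cells, an established triple-negative breast cancer line, on Agilent whole human genome arrays. The 10 genes were chosen by name, by a probe whose gene name or current symbol is one of theirs, and account for 13 of the 41000 gene probes and 10 of the 30992 genes on the arrays. There were 15 arrays, 5 biological replicates for each of 3 treatments. shCtBP2 cells carried a stable short hairpin RNA against CTBP2, which encodes a transcriptional corepressor, and HIPP and P4 cells were parental cells collected 24 h after a small-molecule CtBP2 inhibitor was added. HIPP is the oxime and P4 the hydrazone made from the same phenyl-substituted keto acid, and the doses used for the arrays are not given in the sources used here. Each array carried treated RNA labelled with Cy5 and control RNA labelled with Cy3, without any exchange of dyes, so that a ratio can hold a dye effect of the probe. By the labels every control was untreated MDA-MB-231, by the paper that of shCtBP2 was a scrambled control, and whether shCtBP2 is a clone or a pool is not given in the sources used here. All comparisons rest on 1 cell line in culture.

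Matrix metalloproteinases are zinc-dependent endopeptidases that cut collagens and other matrix proteins and are secreted or anchored as zymogens that must be opened by another protease. The TIMPs are small proteins that occupy the active site of the enzymes. TIMP2 also bridges membrane-bound MMP14 to the MMP2 zymogen, which MMP14 then cleaves, and TIMP3 differs from the other inhibitors in being held in the matrix and in inhibiting ADAM and ADAMTS proteases as well. In breast cancer the system is known for its part in invasion, and MDA-MB-231 is an invasive, mesenchymal line.

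The share of gene spots read well above background ran from 65.2 to 77.5% in treated channels and from 64.9 to 81% in control channels, and 0 spots were saturated. The mesenchymal markers VIM, CD44, SPARC, AXL, CAV1 and MSN were well above background in both channels of all 15 arrays. CAV1 was called lower with HIPP at -2.07 and with P4 at -1.38, CD44 higher with HIPP and SPARC higher in shCtBP2 cells. Of the luminal markers, PGR and CDH1 were above background on 0 arrays, but EPCAM and GATA3 were so in both channels of all 15. Of 7 leukocyte and macrophage markers, PTPRC and CD3D were above background on 0 arrays, whereas CD14, CD68 and CSF1R were above it on all 15, and CSF1R was called in shCtBP2 cells and CD68 with HIPP and P4. The mean log2 ratios of these 7 genes ran from -0.12 to 1.01 in shCtBP2, from -0.13 to 2.01 with HIPP and from 0.01 to 1.12 with P4, and their part in the results that follow was not tested. CTBP2, the target of the hairpin, had a log2 ratio of -0.41 ± 0.11 (SD of 5 arrays, limma, adjusted p = 0.0602) in shCtBP2 cells, lower on 5 of 5 arrays. Its 2 probes had 74.6% and 76.3% of the control signal (limma adjusted p = 0.153 and 0.0178, probes fitted one by one). The paper reports a larger decrease of the mRNA by real-time PCR, and less protein, both against scrambled cells. With HIPP it was 0.57 ± 0.36 (SD of 5 arrays, limma, adjusted p = 0.0026), higher on 5 of 5 arrays. With P4 it was 0.17 ± 0.35 (SD of 5 arrays, limma, adjusted p = 0.345), its 2 probes lying apart at 0.53 and -0.19. P4 replicates 1 to 4 were scanned on day 2, and P4 replicate 5 and all shCtBP2 and HIPP arrays on day 1. A P4 value, or a contrast with P4, can therefore hold a difference between scan days, which was not tested apart from slide. The arrays lay on 4 slides. Slide 3 held shCtBP2 replicates 1 and 2 with HIPP replicates 4 and 5, slide 4 held shCtBP2 replicates 3 to 5, slide 2 held HIPP replicates 1 to 3 with P4 replicate 5, and slide 1 held P4 replicates 1 to 4.

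The probes themselves decide what each gene value means, because MMP1, TIMP2 and TIMP3 each have 2 probes made from different transcripts. One probe of each was matched to the RefSeq transcript of the gene, and the other carries the gene's name in the array annotation but was designed on another cDNA record. The first 30 of the 60 bases of both probes are shown for these 3 genes, 5′ to 3′, because the results differ between them, followed by the single probes of MMP14 and TIMP1.
TIMP3, RefSeq transcript, chr22:31583094-31583153, plus strand: caagatggcacccaagtgtttggcttctgg
TIMP3, other cDNA, chr22:31534934-31534993, minus strand: ccactgtttaatacggtagcttagcagtta
TIMP2, RefSeq transcript, chr17:74363249-74363308, minus strand: aaagcctccaagggtttcgactggtccagc
TIMP2, other cDNA, chr17:74398565-74398624, minus strand: gcttgaacaaatggaacacccagatatgag
MMP1, RefSeq transcript, chr11:102165907-102165966, minus strand: acatgtgcagtcactggtgtcaccctggat
MMP1, other cDNA, chr11:102208190-102208249, plus strand: cagctcctaatggttaatgtgaaacttacc
MMP14, RefSeq transcript, chr14:22385631-22385690, plus strand: ggactgccaagccaccctaagaccttggga
TIMP1, RefSeq transcript, chrX:47200920-47200979, plus strand: catggagagtgtctgcggatacttccacag
Positions are those of the array annotation, on build hg17. The other cDNA of TIMP3 lies 48.2 kb from the RefSeq probe and on the opposite strand, that of MMP1 42.3 kb away and also on the opposite strand, and that of TIMP2 35.3 kb away on the same strand. The 3 RefSeq probes were read well above background on nearly every array, the exception being MMP1 in the treated channel of 1 HIPP array. The other cDNA probes of MMP1 and TIMP3 were above background on 0 arrays in either channel, and that of TIMP2 only in the treated channel of 3 HIPP arrays. A mean over both probes therefore mixes a measured ratio with a ratio of background signals, and values are given for the RefSeq probe first and for the gene mean beside it.

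**Figure D1:**
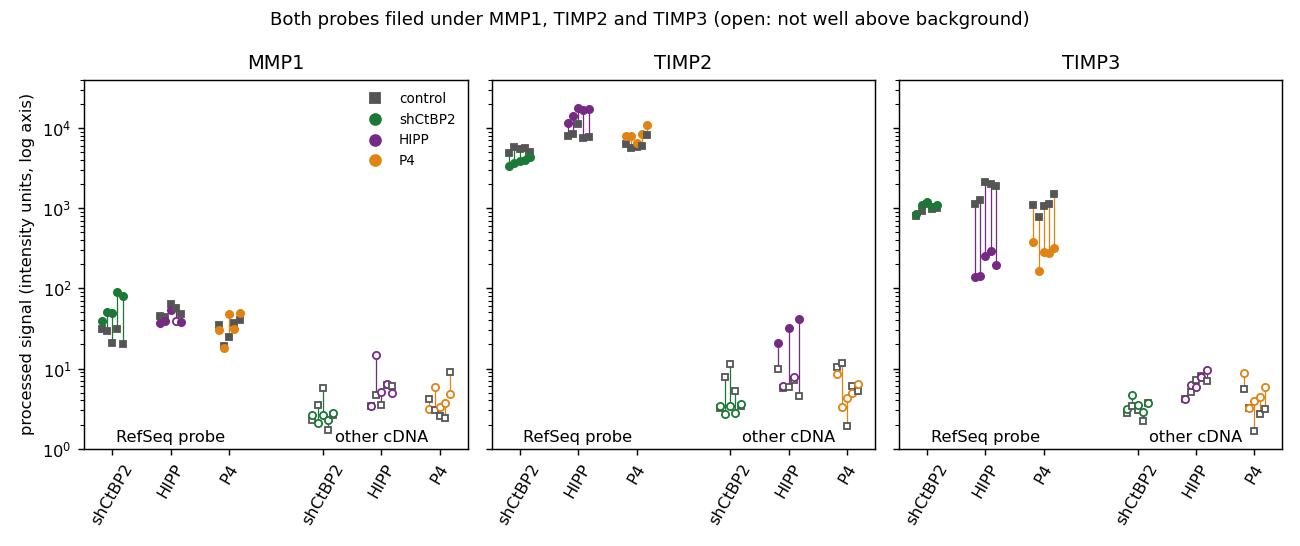
Processed signals, in intensity units on a log axis, of both probes filed under MMP1, TIMP2 and TIMP3, with a square for the control and a circle for the treated channel of each array, joined by a line, and open symbols where a channel was not well above background. The RefSeq probe of TIMP3 lies between 767 and 2100 in the control channel, whereas the other cDNA probe of TIMP3 stays under 10 in both channels.

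Genes were tested by limma on the mean over their probes, in 1 fit of all 15 arrays, and called at an adjusted p under 0.05 together with a linear fold change of 1.5 for shCtBP2, 2.5 for HIPP and 1.8 for P4. In shCtBP2 cells 2 of the 9 members tested were called, MMP3 and MMP13, both higher, where 6.55% of all genes tested were called, 3.34% higher and 3.22% lower. With HIPP 3 of 9 were called, MMP3 and MMP14 higher and TIMP3 lower, against 7.05% of all genes, 3.43% higher and 3.61% lower. With P4 1 of 9 was called, MMP3, higher, against 8.46% of all genes, 4.29% higher and 4.17% lower. At the adjusted p alone the members numbered 2, 5 and 5, where 13.4%, 48.7% and 31.8% of all genes passed in shCtBP2, HIPP and P4. The lowest interquartile ranges were removed before testing, which left out MMP14 in shCtBP2, MMP1 with HIPP and MMP13 with P4. The median log2 ratio of the 10 genes was 0.18, 0.37 and 0.30 in the 3 treatments, beside 0.04, 0.08 and 0.11 over all genes tested. With each probe fitted as a row of its own, chosen after the data were seen, MMP1 joined the calls in shCtBP2 cells and TIMP3 those with P4, so that 3, 3 and 2 RefSeq probes of members were called, where 6.9%, 8.45% and 9.51% of all probes were.

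**Figure D2:**
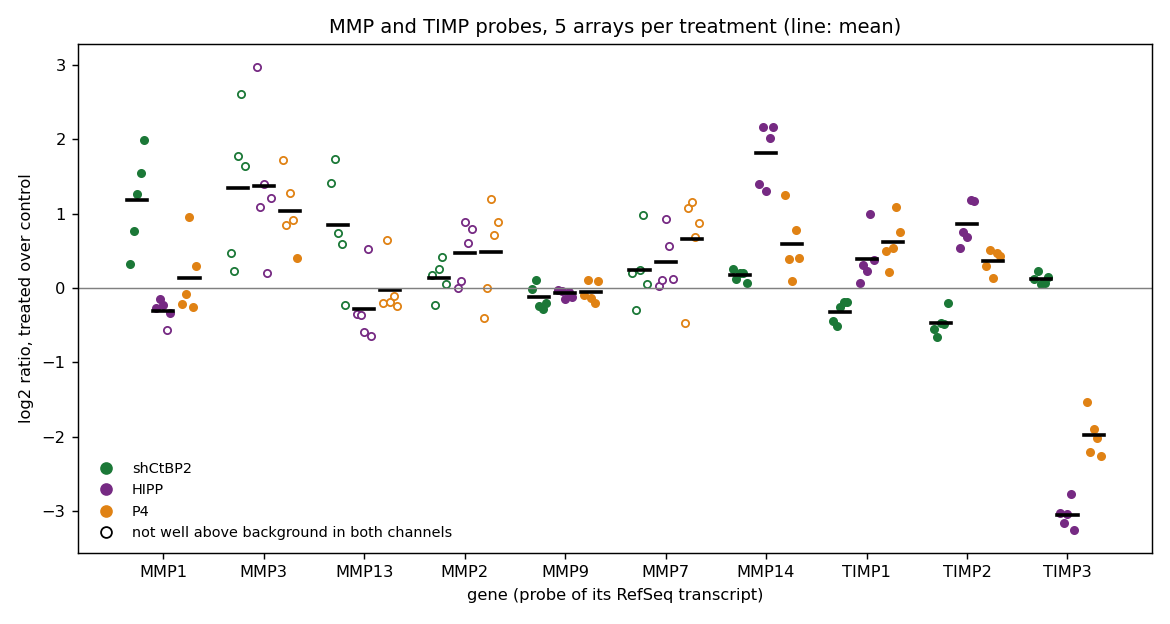
Log2 ratio of treated over control signal for the RefSeq probe of each of the 10 genes, 1 point for each array, with 5 arrays per treatment and a line at their mean; open points were not well above background in both channels. TIMP3 lies between -3.25 and -2.77 with HIPP and between -2.26 and -1.53 with P4, MMP14 lies above 1.30 on all HIPP arrays, and every point of MMP2, MMP7 and MMP13 is open.

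MMP14, the membrane-anchored collagenase that activates MMP2, was up-regulated with HIPP. Its treated signal was 841, 1851, 1449, 1949 and 2241 on the 5 HIPP arrays, against 319, 411, 585, 481 and 499 in the control channel of the same arrays. Every treated value exceeded every control value. The log2 ratio was 1.81 ± 0.43 (SD of 5 arrays), a fold change of 3.51 (limma adjusted p = 3.43e-07), higher on 5 of 5 arrays. With normexp and loess the ratio of MMP14 in HIPP-treated cells was 1.315 (limma adjusted p = 4.65e-05), just short of the fold-change threshold. With P4 the log2 ratios were 1.26, 0.39, 0.10, 0.79 and 0.40, all above 0 but with replicate 1 apart from the rest. Their mean of 0.59 ± 0.45 (SD of 5 arrays, limma, adjusted p = 0.0112) passed the adjusted threshold and was a fold change of 1.5, short of the fold-change threshold. Without replicate 1 the mean was 0.42 (limma adjusted p = 0.0441), and with slide as a block 0.68 (limma adjusted p = 0.148). In shCtBP2 cells the 5 ratios lay between 0.07 and 0.25, with a mean of 0.17 ± 0.07 (SD of 5 arrays). This low spread put MMP14 among the genes removed before testing, and without that filter the limma adjusted p was 0.551.

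The 250 bases before the start of MMP14, as RefSeq places it on GRCh38.p14, are shown with those of TIMP3 and TIMP1 further on, because these 3 genes were read in both channels of all arrays and moved in different directions. Capitals mark exact matches, on either strand, to the AP-1 site TGAGTCA, the GC box GGGCGG, the E-box CAGGTG and the TATA box TATAAA, and no match of 1 motif overlapped one of another.
MMP14, chr14:22836335-22836584, plus strand: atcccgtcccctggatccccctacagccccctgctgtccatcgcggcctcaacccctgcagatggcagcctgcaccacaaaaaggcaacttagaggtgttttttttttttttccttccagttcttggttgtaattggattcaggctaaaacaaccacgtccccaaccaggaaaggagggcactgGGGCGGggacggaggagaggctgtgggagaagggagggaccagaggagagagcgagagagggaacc
The window of MMP14 held 1 GC box, 66 bases before the start, and 0 matches to the other motifs. Among 35116 promoters of the same length, 42.6% held a GC box, 4.2% an AP-1 site, 17.5% this E-box and 10.7% this TATA box. A match is a run of letters and was not tested as a binding site.

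TIMP3, the matrix-bound inhibitor, was down-regulated at its RefSeq probe with both inhibitors and was not called in shCtBP2 cells. The treated signals with HIPP were 138, 143, 256, 294 and 198, and the control signals of the same arrays 1129, 1282, 2100, 2003 and 1885. Every treated signal lay far under the lowest control signal. The log2 ratio was -3.05 ± 0.18 (SD of 5 arrays), 12.1% of the control signal (limma adjusted p = 2.25e-10, probes fitted one by one), lower on 5 of 5 arrays. With normexp and loess it was -1.99 (limma adjusted p = 8.17e-06), still past the fold-change threshold. With P4 the treated signals were 375, 166, 282, 276 and 314 against 1083, 767, 1051, 1112 and 1503 in the control channel. These channels did not overlap either, and the log2 ratio of -1.98 ± 0.29 (SD of 5 arrays, limma, adjusted p = 3.34e-08) corresponds to 25.3% of the control. In shCtBP2 cells the ratios were 0.12, 0.23, 0.06, 0.07 and 0.14, with a mean of 0.12 ± 0.07 (SD of 5 arrays, limma, adjusted p = 0.475). The mean over both probes was -1.49 ± 0.11 with HIPP (SD of 5 arrays, limma, adjusted p = 3.23e-08) and -0.64 ± 0.29 with P4 (SD of 5 arrays, limma, adjusted p = 2.69e-04), the latter short of the fold-change threshold. On slide 2 the RefSeq probe had a mean of -3.08 on 3 HIPP arrays and -2.26 on 1 P4 array. On slide 3 it was -3.01 on 2 HIPP arrays and 0.17 on 2 shCtBP2 arrays. HIPP was thus the lower on both slides, while P4 and shCtBP2 shared no slide.
TIMP3, chr22:32801455-32801704, plus strand: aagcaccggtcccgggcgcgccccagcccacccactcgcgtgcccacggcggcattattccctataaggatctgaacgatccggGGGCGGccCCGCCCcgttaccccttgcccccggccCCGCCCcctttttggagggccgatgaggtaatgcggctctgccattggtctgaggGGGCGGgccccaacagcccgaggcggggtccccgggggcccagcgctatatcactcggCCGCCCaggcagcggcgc
This window of TIMP3 was 72.4% G and C, held 5 GC boxes in capitals and held 0 matches to the AP-1 site, the E-box or the TATA box.

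TIMP2, the inhibitor that links MMP14 to the MMP2 zymogen, was lower in shCtBP2 cells and higher with the inhibitors. Its RefSeq probe gave log2 ratios of -0.55, -0.66, -0.47, -0.49 and -0.21 in shCtBP2 cells, of 0.54, 0.75, 0.69, 1.18 and 1.17 with HIPP and of 0.29, 0.52, 0.14, 0.47 and 0.43 with P4. The lowest HIPP value, 0.54, lay only just above the highest P4 value, 0.52, and all 10 inhibitor arrays lay above all 5 shCtBP2 arrays. How often other probes on the arrays separate in this way was not counted, here or for the other members. The means were -0.48 ± 0.17 in shCtBP2 cells (SD of 5 arrays, limma, adjusted p = 0.00907), 0.87 ± 0.29 with HIPP (SD of 5 arrays, limma, adjusted p = 9.51e-06) and 0.37 ± 0.15 with P4 (SD of 5 arrays, limma, adjusted p = 0.0162). All 3 passed the adjusted threshold and none reached the fold-change threshold of its treatment. With slide as a block the value in shCtBP2 cells was -0.86 (limma adjusted p = 0.0146), past the fold-change threshold, and that with P4 0.69 (limma adjusted p = 0.0239). The mean over both probes was -0.65 ± 0.48 (SD of 5 arrays, limma, adjusted p = 0.0921), 1.12 ± 0.74 (SD of 5 arrays, limma, adjusted p = 0.00139) and 0.09 ± 0.49 (SD of 5 arrays, limma, adjusted p = 0.789). In this fit the call at the adjusted threshold with P4 and in shCtBP2 cells therefore rests on the RefSeq probe. With replicate number as a block, and with background subtraction, the gene mean in shCtBP2 cells was called. Leaving out P4 replicate 2, 4 or 5 raised the adjusted p of the RefSeq probe with P4 to 0.053, 0.056 and 0.0528.

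TIMP1, a secreted inhibitor of most of the soluble enzymes, had log2 ratios below 0 on all 5 shCtBP2 arrays, from -0.52 to -0.19, and above 0 on all 10 inhibitor arrays. With P4 the ratios were 0.50, 0.22, 0.54, 1.09 and 0.75, with a mean of 0.62 ± 0.32 (SD of 5 arrays, limma, adjusted p = 0.00271), a fold change of 1.54. With HIPP they were 0.07, 0.30, 0.22, 0.99 and 0.38, with a mean of 0.39 ± 0.35 (SD of 5 arrays, limma, adjusted p = 0.0231), a fold change of 1.31. Both passed the adjusted threshold and neither the fold-change threshold. With slide as a block the value with P4 was 0.99 (limma adjusted p = 0.0238 at its single probe), past the fold-change threshold. The value with HIPP leaned on replicate 4, without which it was 0.24 (limma adjusted p = 0.12), and for TIMP1 in HIPP-treated cells without replicate 5 the limma adjusted p was 0.0527. In shCtBP2 cells the mean was -0.32 ± 0.15 (SD of 5 arrays, limma, adjusted p = 0.129), and -0.73 with slide as a block (limma adjusted p = 0.0661).
TIMP1, chrX:47582186-47582435, plus strand: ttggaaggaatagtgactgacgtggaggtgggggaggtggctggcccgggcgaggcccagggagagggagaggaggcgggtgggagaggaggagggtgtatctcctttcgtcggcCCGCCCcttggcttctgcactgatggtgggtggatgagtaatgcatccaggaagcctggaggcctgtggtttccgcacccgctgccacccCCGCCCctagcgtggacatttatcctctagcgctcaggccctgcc
The TIMP1 window held 2 GC boxes and 0 matches to the other 3 motifs. The MMP7 window, the other member promoter at hand, held 1 AP-1 site and 1 TATA box.

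MMP1, the interstitial collagenase, was higher in shCtBP2 cells at its RefSeq probe, which is spotted 10 times on each array. The treated signals were 39.2, 50.4, 49.8, 89.4 and 80.9, against control signals of 31.4, 29.5, 20.7, 30.7 and 20.3. Every treated value exceeded every control value, all of them low but well above background. The log2 ratio was 1.18 ± 0.65 (SD of 5 arrays, limma, adjusted p = 0.00182, probes fitted one by one), a fold change of 2.26, higher on 5 of 5 arrays and past the fold-change threshold. It was 0.55 on the 2 arrays of slide 3 and 1.60 on the 3 arrays of slide 4, and with slide as a block it was 0.83 (limma adjusted p = 0.11), which ended the call. With normexp and loess it was 0.41 (limma adjusted p = 0.017), short of the fold-change threshold. With the other cDNA probe averaged in, the mean was 0.48 ± 0.50 (SD of 5 arrays, limma, adjusted p = 0.123). With HIPP the RefSeq probe was below 0 on 5 of 5 arrays, from -0.57 to -0.15, with a mean of -0.31 ± 0.16 (SD of 5 arrays, limma, adjusted p = 0.22). With P4 it lay below 0 on 3 arrays and above it on 2, with a mean of 0.14 ± 0.51 (SD of 5 arrays, limma, adjusted p = 0.62).

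MMP3, stromelysin, which cuts proteoglycans and opens other MMP zymogens, was the only member called in all 3 treatments, and it was read at the edge of detection. The treated signals were 9.97 to 19.3 in shCtBP2 cells, 18.5 to 34.0 with HIPP and 12.02 to 25.2 with P4, and were well above background on 2, 3 and 2 of the 5 arrays. The control signals, 3.16 to 19.1, were above background on 1 array of 15, P4 replicate 5. The log2 ratio was above 0 on all 15 arrays but ranged from 0.23 to 2.61 in shCtBP2 cells, from 0.20 to 2.97 with HIPP and from 0.40 to 1.73 with P4. The means were 1.34 ± 0.99 (SD of 5 arrays, limma, adjusted p = 0.021), 1.37 ± 1.01 (SD of 5 arrays, limma, adjusted p = 0.0049) and 1.03 ± 0.50 (SD of 5 arrays, limma, adjusted p = 0.0374). With normexp and loess the log2 ratio of MMP3 was 0.22 in shCtBP2 cells (limma adjusted p = 0.0441). With HIPP it was 0.14 (limma adjusted p = 0.0946), which did not pass. These signals were also aligned between arrays, and dim control signals were raised to the lowest signal above background on the array. The fold changes were then 1.15 in shCtBP2 cells and 1.09 with HIPP. Because the treated channel was dim as well on part of the arrays, they are not lower bounds. The call in shCtBP2 cells was lost without replicate 3, 4 or 5 (1.24, 1.03 and 1.27), that with HIPP without replicate 1 (0.97), with slide as a random block (1.316) and by the methods' test (adjusted p = 0.0526 for MMP3 in HIPP-treated cells), and that with P4 without replicate 1, 2, 3 or 4 (0.86, 1.08, 0.97 and 1.06). With slide as a block the value of MMP3 in shCtBP2 cells was 1.49 (limma adjusted p = 0.072), that of MMP3 in HIPP-treated cells 1.84 (limma adjusted p = 0.00104) and that of MMP3 in P4-treated cells 0.42 (limma adjusted p = 0.583).

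The collagenase MMP13, the gelatinase MMP2 and the matrilysin MMP7 were well above background on 0 of 15 arrays in either channel. MMP13 was called in shCtBP2 cells at a limma adjusted p of 0.0272, but its signals there were 2.74 to 8.60 in the treated and 2.21 to 3.22 in the control channel, and no fold change is given. The call on MMP13 in shCtBP2 cells was lost without replicate 1, 2, 3 or 4 (limma adjusted p = 0.113, 0.131, 0.0589 and 0.0559), with slide as a block (limma adjusted p = 0.0541) and with each treatment fitted alone (limma adjusted p = 0.0844). MMP7 passed the adjusted threshold with P4 (limma adjusted p = 0.0304) on signals of at most 6.09, reached the fold-change threshold when P4 replicate 1 was left out and did not pass without any other P4 replicate, and MMP2 passed it in no treatment. MMP9, the second gelatinase, was measured in both channels of all 15 arrays, again by a probe spotted 10 times, and was the steadiest member. The mean ratio was -0.13 ± 0.16 in shCtBP2 cells (SD of 5 arrays, limma, adjusted p = 0.33), -0.07 ± 0.05 with HIPP (SD of 5 arrays, limma, adjusted p = 0.457) and -0.05 ± 0.14 with P4 (SD of 5 arrays, limma, adjusted p = 0.667). All 15 values lay between -0.28 and 0.10, while its treated signal ran from 44.1 to 255.

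Whether the treatments differed from each other was tested by contrasts in the same fit, on the gene means. HIPP and shCtBP2 differed in 4 of the 8 members tested, MMP13, TIMP1, TIMP2 and TIMP3, where 26.3% of all genes differed. Of these, MMP13 was not well above background on any array, and its difference compares dim signals. P4 and shCtBP2 differed in 2 of 8, TIMP1 and TIMP3, against 11.9% of all genes. HIPP and P4 differed in 2 of 8, MMP14 and TIMP3, against 10.5%. On the RefSeq probes 5 of 9 differed between HIPP and shCtBP2, MMP13 again among them, 4 of 8 between P4 and shCtBP2 and 3 of 9 between HIPP and P4, where 28.7%, 12.8% and 13% of all probes did.

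In this fit the oxime HIPP and the hydrazone P4 differed at TIMP3, where HIPP minus P4 was -1.07 at the RefSeq probe (95% interval -1.38 to -0.76, limma adjusted p = 5.58e-04), the lower value being with HIPP. At MMP14 the difference was 1.23 (95% interval 0.75 to 1.70, limma adjusted p = 0.003), higher with HIPP, and at the RefSeq probe of TIMP2 0.50 (95% interval 0.17 to 0.82, limma adjusted p = 0.0425). Whether the 3 differences passed depended on the processing and on the slide block. With normexp and loess that at TIMP3 was -0.28 (limma adjusted p = 0.676) and that at MMP14 0.82 (limma adjusted p = 0.057). With slide as a block none of the 3 passed, the difference being -0.82 at TIMP3 (limma adjusted p = 0.212), 1.22 at MMP14 (limma adjusted p = 0.22) and 0.23 at TIMP2 (limma adjusted p = 0.694). That block compares HIPP and P4 within slide 2 alone, on 3 HIPP arrays and 1 P4 array. The loss of these calls with the block therefore cannot be told from a loss of precision. At TIMP2 leaving out most single arrays also ended the call, with a limma adjusted p of up to 0.115, reached without HIPP replicate 5. For TIMP1 the difference was -0.23 with an interval from -0.63 to 0.17 (limma adjusted p = 0.552), and for MMP9 -0.03 with an interval from -0.27 to 0.21 (limma adjusted p = 0.957). Since the doses on the arrays are not given in the sources used here, these contrasts compare the cultures as treated and not the compounds at matched doses. P4 replicates 1 to 4 were also scanned on another day than the HIPP arrays.

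**Figure D3:**
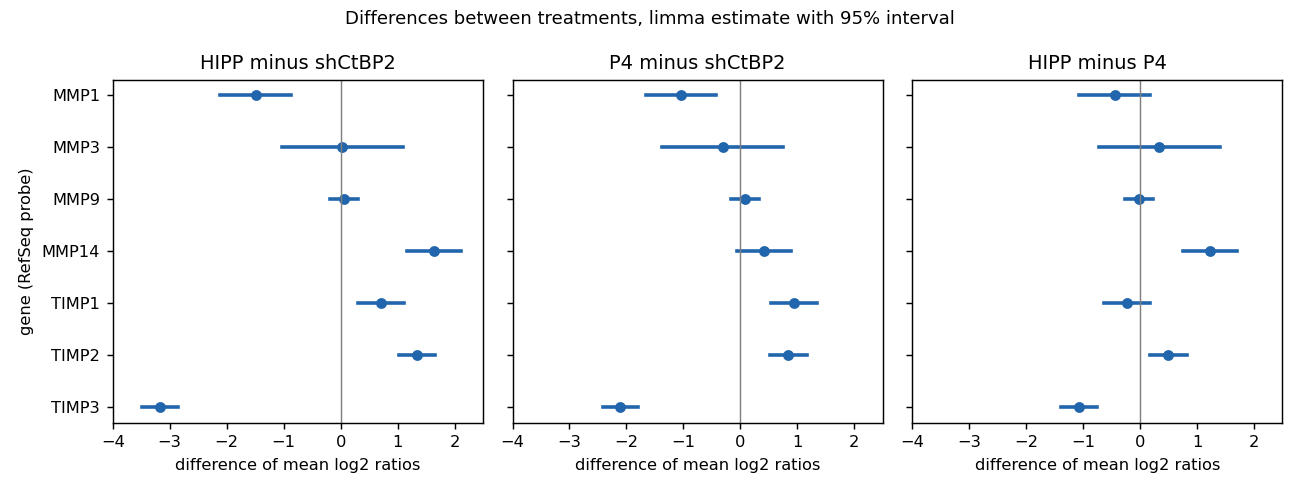
Difference of mean log2 ratios between treatments at the RefSeq probe of 7 members, with the limma estimate as a point and its 95% interval as a line. The interval of TIMP3 lies below 0 in all 3 contrasts, at -3.17, -2.11 and -1.07, that of MMP9 spans 0 in all 3, and the control channel of MMP3 was dim on 14 of 15 arrays.

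Against shCtBP2 cells, TIMP3 was lower by more than any other member at the RefSeq probes. The difference at the RefSeq probe was -3.17 for HIPP (95% interval -3.49 to -2.86, limma adjusted p = 1.72e-08, and -2.08 with normexp and loess) and -2.11 for P4 (95% interval -2.42 to -1.79, limma adjusted p = 1.23e-06). TIMP2 was higher with HIPP than in shCtBP2 cells by 1.34 (95% interval 1.02 to 1.66, limma adjusted p = 1.29e-05) and with P4 by 0.84 (95% interval 0.52 to 1.17, limma adjusted p = 0.00213). On the gene mean the differences of TIMP2 were 1.77 (limma adjusted p = 0.0013) and 0.74 (limma adjusted p = 0.19), the latter not passing, and with slide as a block the difference for P4 at the RefSeq probe was 1.55 (limma adjusted p = 0.0374). TIMP1 was higher by 0.71 with HIPP (limma adjusted p = 0.0108) and by 0.94 with P4 (limma adjusted p = 0.0044). With slide as a block the difference of TIMP1 was 1.17 for HIPP (limma adjusted p = 0.0106) and 1.71 for P4 (limma adjusted p = 0.0511), which no longer passed. MMP1 was lower with both inhibitors than in shCtBP2 cells at its RefSeq probe, with a difference of -1.49 for HIPP (95% interval -2.11 to -0.87, limma adjusted p = 0.00129) and of -1.04 for P4 (95% interval -1.66 to -0.42, limma adjusted p = 0.0292). With slide as a block these 2 differences of MMP1 were -0.99 (limma adjusted p = 0.0727) and -0.48 (limma adjusted p = 0.601), and with normexp and loess -0.47 (limma adjusted p = 0.0219) and -0.37 (limma adjusted p = 0.0796). For P4 the difference also missed the threshold without shCtBP2 replicate 3, 4 or 5 or P4 replicate 1, 2, 4 or 5, at a limma adjusted p of up to 0.0766. For MMP14 the difference between HIPP and shCtBP2 was 1.64 (95% interval 1.17 to 2.12), for which the filter on variability left no test in this fit, and without that filter the limma adjusted p was 7.24e-05. For MMP3 the differences of 0.03, -0.31 and 0.34 had intervals over 2 log2 units wide.

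Beyond the 10 members, 6 lists of genes of pericellular proteolysis were read. Over all 6 lists the calls were 6 of 79 genes tested in shCtBP2, 7 of 74 in HIPP and 4 of 75 in P4, which is 7.59%, 9.46% and 5.33%, where 6.55%, 7.05% and 8.46% of all genes were called. Of the other matrix metalloproteinases, 0 of 15 tested were called in shCtBP2 cells, 0 of 14 with HIPP and 1 of 14 with P4. The 1 was MMP21, lower on 4 of 5 arrays, with its treated channel above background on 0 arrays. With normexp and loess its log2 ratio with P4 was -0.032 (limma adjusted p = 0.543). The median log2 ratio of this list was 0.03, 0.34 and 0.34 in the 3 treatments, beside 0.04, 0.08 and 0.11 over all genes tested, which stand beside the medians of the other lists as well. Of the other inhibitors and clearance genes, with medians of 0.15, 0.26 and 0.03 and 6, 5 and 6 genes tested, RECK, a membrane-anchored inhibitor of MMP14, MMP2 and MMP9, was the only call, with HIPP, at -2.37 ± 0.33 (SD of 5 arrays, limma, adjusted p = 8.33e-09) and lower on 5 of 5 arrays. RECK was -0.67 ± 0.13 with P4 (SD of 5 arrays, limma, adjusted p = 0.00145 at its single probe), short of the fold-change threshold, and 0.27 ± 0.35 in shCtBP2 cells (SD of 5 arrays, limma, adjusted p = 0.196).

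Of 8 plasminogen activator genes tested in each treatment, PLAU, the urokinase that starts plasmin formation at the cell surface, was called with HIPP at -2.17 ± 0.44 (SD of 5 arrays, limma, adjusted p = 2.31e-08), and 0 were called in shCtBP2 cells or with P4. The medians of this list were 0.04, -0.04 and 0.04. PLAU was -0.66 ± 0.27 with P4 (SD of 5 arrays, limma, adjusted p = 0.00244 at its single probe) and -0.05 ± 0.13 in shCtBP2 cells. Of the activators and surface partners, CD44, the hyaluronan receptor that can hold MMP14 and MMP9 at the cell surface, was called with HIPP at 1.40 ± 0.28 (SD of 5 arrays, limma, adjusted p = 7.25e-08), 1 of 14 tested, and 0 of 13 and 0 of 12 were called in shCtBP2 cells and with P4. The medians were 0.09, 0.28 and 0.20.

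Of the ADAM and ADAMTS proteases, 3 of 22 were called higher and 2 lower in shCtBP2 cells, 1 of 21 was called with HIPP and 0 of 22 with P4, with medians of 0.03, 0.25 and 0.31, where 3.34% of all genes were called higher and 3.22% lower in shCtBP2, and 7.05% in HIPP and 8.46% in P4. ADAMTS1, an aggrecan- and versican-cleaving enzyme, was 1.71 ± 0.42 with HIPP (SD of 5 arrays, limma, adjusted p = 2.52e-07) and was called at -0.61 ± 0.22 in shCtBP2 cells (SD of 5 arrays, limma, adjusted p = 0.0112), with both of its probes in the same direction. ADAM15 was -0.62 ± 0.09 in shCtBP2 cells (SD of 5 arrays, limma, adjusted p = 0.00627). ADAMTS6 was 0.67 ± 0.05 there (SD of 5 arrays, limma, adjusted p = 0.024), which is the mean of 1.34 at a bright probe and 0.01 at one that was not above background on any array. ADAMTS15 was called in shCtBP2 cells (limma adjusted p = 1.83e-04) with its control channel above background on 0 arrays and its treated channel on 1. With normexp and loess its log2 ratio in these cells was 0.022 and had no test. The third gene called higher there was ADAMTS4, with both channels above background on 0 arrays.

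Of the transcription factors known to act on MMP promoters, JUND, a subunit of AP-1, was called in all 3 treatments, at 0.84 ± 0.17 in shCtBP2 cells (SD of 5 arrays, limma, adjusted p = 0.00172), 1.40 ± 0.38 with HIPP (SD of 5 arrays, limma, adjusted p = 1.96e-06) and 0.95 ± 0.38 with P4 (SD of 5 arrays, limma, adjusted p = 2.43e-04). FOS, another AP-1 subunit, was called lower with HIPP at -1.55 ± 1.26 (SD of 5 arrays, limma, adjusted p = 0.0477) and with P4 at -1.67 ± 0.79 (SD of 5 arrays, limma, adjusted p = 0.0491), with ratios from -3.36 to -0.38 and from -2.90 to -1.03. CEBPB was 1.34 ± 0.21 with P4 (SD of 5 arrays, limma, adjusted p = 2.78e-07), with 1.07 and 1.61 at its 2 probes. With HIPP it was 1.17 ± 0.19 (SD of 5 arrays, limma, adjusted p = 1.33e-07), on every array above 0 but short of the larger fold-change threshold of that treatment. ETV1 was called lower with HIPP at -1.36 ± 0.21 (SD of 5 arrays, limma, adjusted p = 3.50e-08), but its 2 probes, both above background on all 5 arrays, opposed each other at 0.58 and -3.30. The list had 1 of 15, 3 of 12 and 3 of 13 genes called in shCtBP2, HIPP and P4, and medians of -0.07, 0.38 and 0.29, where 6.55%, 7.05% and 8.46% of all genes were called.

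**Figure D4:**
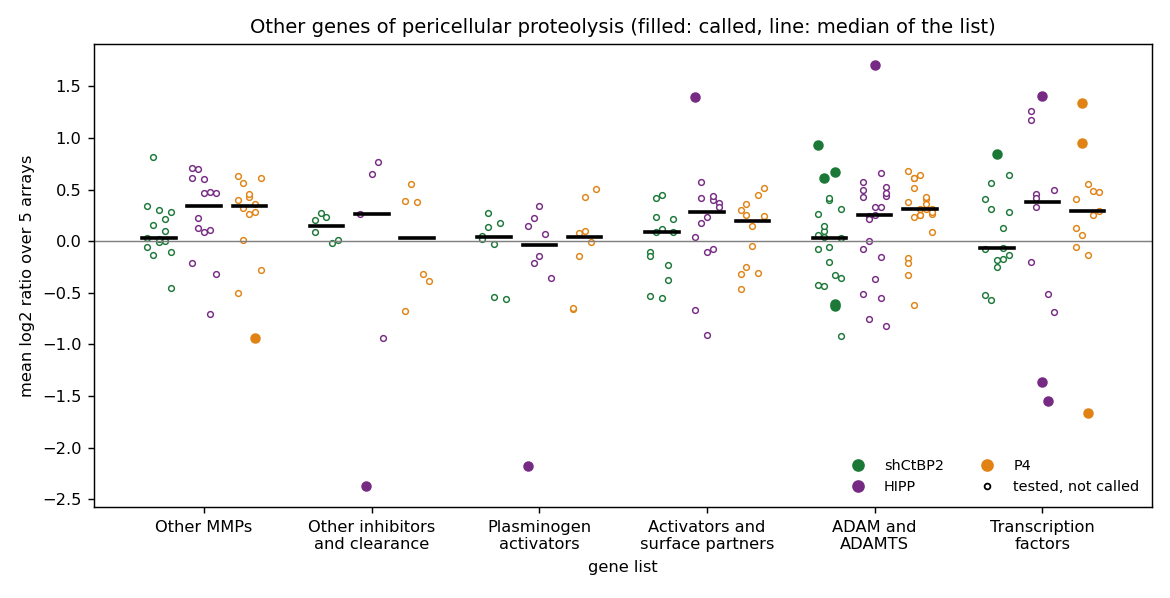
Mean log2 ratio over 5 arrays of every tested gene in the 6 lists, with filled points for called genes and a line at the median of the list in each treatment. RECK at -2.37 and PLAU at -2.17 are the lowest HIPP points, and ADAMTS1 at 1.71 is the highest.

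Among 12947 genes with a current symbol and read in both channels of at least 10 arrays, those whose log2 ratio over the 15 arrays was most like that of MMP14 were WHAMM (Pearson r = 0.985), DNAJC30 (r = 0.982) and ITSN2 (r = 0.981). Those most like TIMP3, on its gene mean, were RPL15 (r = 0.989), NAP1L1 (r = 0.985) and F13A1 (r = 0.979). The 15 points are 3 sets of 5 arrays with 1 dye orientation, and arrays of a treatment often share a slide, so these values describe the pattern across treatments.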

How the data were processed

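Total RNA of MDA-MB-231 cells was hybridised to 15 two-colour Agilent arrays, 5 for each treatment, with treated RNA in Cy5 and control RNA in Cy3. The authors scanned the arrays and extracted the spots with Feature Extraction (version 9.5 per the file headers), which corrected background and dye differences within each array, and deposited intensity values for each spot with a value table of log10 ratios. The log10 table equals the log ratio of the scanner files and was used as an alternative. The columns are written with decimal commas.

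The log2 ratio of the processed Cy5 over Cy3 intensity was taken for each of 43376 gene spots. The 78 to 265 gene spots per array that Feature Extraction flagged (non-uniform or outlying) were dropped. Spots were averaged by probe and probes by gene, and current symbols came from RefSeq (GRCh38.p14), which placed 25639 spots by accession, 2416 by symbol and 1040 by synonym. Genes measured on at least 3 of 5 arrays were kept, and the lowest 11% of interquartile ranges over the 10 channel signals of a treatment were removed, as the methods describe. Ratios were tested against 0, and treatments against each other, with limma (version 3.58.1, R 4.3.3), with Benjamini-Hochberg adjustment over the 27582 genes tested per treatment. A test on the ratio leaves out the spread between control samples if arrays shared a control extract. Fold-change thresholds were those of the methods. limma took the place of the test in the methods because each treatment had few arrays. The fit was checked on simulated ratios. The number of arrays limits the precision, as do dim signals and the slides. Same-numbered arrays of P4 and shCtBP2 deviated together in 5 of 5 pairs (correlations of 0.138 to 0.352), and 3 of 5 were best with their own number. The numbers may therefore pair these samples. For HIPP 1 pair with each of the others fell under 0.1, although the highest correlation, 0.471, was between HIPP and P4. Over all treatments 7 of 15 pairs were best with their own number, so a pairing is not settled. The labels do not tie the numbers to a shared culture or day.

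All members, every probe of them, the called list genes with the largest ratios (at most 3 per list and treatment), CTBP2 and the 3 genes most like each called, well-measured member were named. The members, lists and tests were chosen with earlier results of these data known. Alternatives were another background correction and normalization, median centring, the value table, the brightest probe, no filter on variability, no dim probes, slide and replicate number as blocks, each treatment alone, the methods' test, other fold-change thresholds and leaving out each array. The fits on the RefSeq probe were added after the data were seen.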

Additional observations from a re-analysis of the deposited data

Results flagged for a closer look

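Treatment effects that differed from each other by a contrast in the limma fit, on gene means and with adjustment over all genes, were the following. TIMP3 differed in all 3 contrasts, by -1.67 between HIPP and shCtBP2, by -0.82 between P4 and shCtBP2 and by -0.85 between HIPP and P4. TIMP2 differed by 1.77 and TIMP1 by 0.71 between HIPP and shCtBP2, and TIMP1 by 0.94 between P4 and shCtBP2. MMP14 differed by 1.23 between HIPP and P4. MMP13 differed by -1.13 between HIPP and shCtBP2, but on signals that were not well above background on any array, and with normexp and loess the difference of MMP13 was -0.012 (limma adjusted p = 0.929).

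One array stood apart from the other 4 of its treatment for MMP13 in both inhibitor treatments, by Dixon's criterion. HIPP replicate 4 had a log2 ratio of 0.53 where the nearest other array had -0.35, and P4 replicate 2 had 0.65 where the nearest had -0.11. Chance alone marks about 1 in 20 groups in this way, and both channels of these arrays were dim for MMP13.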

How the results depend on the processing

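TIMP3 and MMP14 kept their direction with HIPP under every alternative. TIMP3 was past the adjusted threshold with HIPP under every alternative that tested it, but with normexp and loess the fold change of its gene mean fell short (-0.98, and -1.99 at the RefSeq probe), as did that of MMP14 in HIPP-treated cells (1.315, limma adjusted p = 4.65e-05). The count of members called was 2 in shCtBP2, 3 with HIPP and 1 with P4. With normexp and loess, which left 269, 280 and 585 of all genes called, it was 0 in each treatment. With background-subtracted, median-centred signals it was 1 in shCtBP2, TIMP2 in place of both earlier calls, and 0 with P4, and the share of higher calls over all genes was 39.3% with P4 where it had been 50.8%. In shCtBP2 it was 1 without dim probes, MMP1, 1 with each treatment fitted alone, MMP3, and 0 with slide as a block. With P4 the 1 call was TIMP3 without dim probes and TIMP1 with slide as a block, in place of MMP3. With P4 it was 2 on the value table and 2 on the brightest probe, MMP3 and TIMP3. By the methods' test it was 0 in shCtBP2 and 0 with P4. Without a fold-change threshold it was 5 with HIPP and 5 with P4, and with a threshold of 1.5 it was 5 of 9 tested with P4, where 17.5% of all genes were called. Leaving out 1 array at a time gave 0 to 2 in shCtBP2, 2 to 3 with HIPP and 0 to 1 with P4. The 1 with P4 was MMP3, except without P4 replicate 1, where it was MMP7, which is dim.

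With the replicate block the count of members called was 3 in shCtBP2, where TIMP2 was added (-0.65, limma adjusted p = 0.0287 for TIMP2 in shCtBP2), 3 with HIPP and 1 with P4. The block changed no member's call between P4 and shCtBP2 or between HIPP and shCtBP2, and added TIMP2 between HIPP and P4 (1.03, limma adjusted p = 0.0208). Between HIPP and either other treatment 4 of 5 same-numbered pairs of arrays correlated over 0.1, and in 2 of 5 the array was best with its own number.

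In the pathway gene lists, genes called in shCtBP2 numbered 6, with HIPP 7 and with P4 4. The count was 1 and 4 with normexp and loess in shCtBP2 and HIPP, 4 with background subtraction in HIPP, 7 on the brightest probe in P4, and 2 and 2 by the methods' test in shCtBP2 and P4. Over all genes the calls, 1807, 1944 and 2333 in shCtBP2, HIPP and P4, moved too. They were 269 and 280 with normexp and loess in shCtBP2 and HIPP and 2062 with background subtraction in HIPP. In P4 they were 2535 on the brightest probe, and by the methods' test 969 in shCtBP2 and 891 in P4. The count of list genes was 18 and 12 at a fold change of 1.5 in HIPP and P4 (24.3% and 16% of the list genes tested, against 32.6% and 17.5% of all genes). It was 10 and 40 in shCtBP2 and HIPP without a fold-change threshold. Without that threshold, among the pathway gene lists, genes called in P4 numbered 27. These are 12.7%, 54.1% and 36% of the list genes tested, where 13.4%, 48.7% and 31.8% of all genes passed. Leaving out 1 array gave as few as 2 in P4.

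Between HIPP and shCtBP2 3 to 5 members differed under the alternatives, TIMP2 and TIMP3 under each of them. MMP13 was lost with normexp and loess, with background subtraction, without dim probes and without shCtBP2 replicate 1, shCtBP2 replicate 2 or HIPP replicate 5, and TIMP1 had no test with normexp and loess or background subtraction, where MMP14 entered. Between P4 and shCtBP2 the 2 became 0 with background subtraction, 4 on the brightest probe and 0 with slide as a block. With background subtraction and probes fitted one by one, the differences of TIMP1 (0.95) and of the RefSeq probe of TIMP3 (-2.10) had no test. P4 and shCtBP2 shared no slide. Between HIPP and P4 the 2 were MMP14 and TIMP3. With normexp and loess only TIMP2 differed, with background subtraction only MMP14, without dim probes only TIMP3, and with slide as a block 0. TIMP2 joined the 2 on the value table, on the brightest probe, with slide as a random block, with the replicate block and without HIPP replicate 2.

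Most reversals concerned small or dim values, the exception being ETV1 with HIPP, which had been -1.36 and whose probes oppose each other. In shCtBP2, slide as a block gave -0.30 for MMP2, -0.015 for MMP7 and -0.0063 for MMP14. The gene mean of MMP1 in HIPP-treated cells, 0.04, became -0.027 with normexp and loess, -0.019 on the value table, -0.31 on the brightest probe, without dim probes and on the RefSeq probe, and ran from -0.14 to 0.126 leaving out 1 HIPP array. On the RefSeq probe it was -0.069 with normexp and loess, -0.19 with background subtraction, -0.17 with slide as a block, and -0.35, -0.33, -0.32, -0.30 and -0.24 without 1 HIPP array. MMP2 with HIPP became -0.70 with background subtraction, MMP13 0.029 with normexp and loess, and ETV1 0.58 on its brightest probe. The gene mean of MMP1 in P4-treated cells became -0.54 with background subtraction, -0.31 with slide as a block and ran from -0.0035 to 0.243 leaving out 1 P4 array, and was -0.065 on the RefSeq probe without replicate 3. MMP13 with P4 became 0.016 with normexp and loess and ran up to 0.036 leaving out 1 P4 array. That of TIMP2 in P4-treated cells became -0.054 on the value table and ran from -0.0498 to 0.277 leaving out 1 P4 array. The cause of these changes was not tested. Signal over background limits MMP2, MMP3, MMP7 and MMP13.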
